A study of Codonopsis pilosula with 12 samples.

Results

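The 3 genes of Codonopsis pilosula described here encode protein phosphatases 2C (PP2Cs) and were followed in 12 leaf RNA-seq libraries. They are TRINITY_DN14062_c0_g4, whose best protein hit is the Arabidopsis phosphatase At2g29380, TRINITY_DN16290_c0_g3, with PP2CA as its hit, and TRINITY_DN16436_c0_g1, with the rice phosphatase Os01g0583100 as its hit. Out of 55270 assembled genes they were chosen by their higher level in droughted than in watered leaves of these same libraries, so their drought differences are described here without a test. Other genes are named below without the prefix TRINITY. Each gene carried the PP2C domain and the KEGG entry for the PP2C of abscisic acid (ABA) signalling, which 8 genes of the table share. Another 64 genes were annotated as PP2Cs, 5 of them with that entry.

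C. pilosula, a medicinal herb of the Campanulaceae, was grown from seed in pots, and leaves were taken from 4-week-old seedlings of the cultivars Gandang No. 1 (G1) and Weidang No. 1 (W1). The groups were DG1 (G1 on drought day 4, after watering was stopped), CG1 (G1 on drought day 0, still watered), DW1 (W1 on drought day 4) and CW1 (W1 on drought day 0), with 3 libraries each. Watered leaves came from day 0 only, so drought and the passage of days cannot be told apart. The labels speak of samples mixed from 2 pots and the paper's methods of 1 pot for each replicate, so p-values measure the spread between these libraries, which may be in part technical.

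ABA is the hormone that builds up in plants short of water. In Arabidopsis, PP2Cs of the ABA pathway hold SnRK2 kinases inactive. When ABA binds a receptor of the PYR/PYL family, the receptor blocks the phosphatase, the kinases are released, and they phosphorylate ABF transcription factors, which switch on ABA-responsive genes. The phosphatase genes themselves are among the genes that ABA induces, so that the pathway makes more of its own inhibitor. At2g29380 is the Arabidopsis phosphatase HAI3, and PP2CA is also known there as AHG3.

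The libraries held 12415229 to 22837632 expected counts. Replicate 1 of DG1 stood apart. In it, 35 genes for the photosynthetic proteins that mark leaf tissue summed to 17164 TPM, a length-scaled share of all transcripts, with 2 of them listed at 0, against 76079 to 147484 TPM in the other 11 libraries. The 1807 genes with a vertebrate protein as best SwissProt hit and no further annotation made up 2.49% of its TPM, against 0.141% to 0.246% elsewhere. A treatment label names CW1 replicate 1 as droughted, while its title places it with the controls. Root markers (4 genes) summed to 28.8 to 44.6 TPM in DG1, against 41.3 to 94.7 TPM in CG1, where replicate 1 was the highest, and to 41.9 to 73.9 TPM in DW1, against 98.6 to 119 TPM in CW1. The DW1 sums lay below all CW1 sums, while the 3 phosphatases were higher in DW1, and the part of these markers in the results was not tested. Guard cell markers (7 genes) summed to 7.18 to 22.2 TPM. In whole leaves, a change in the share of a cell type cannot be told apart from a change in RNA per cell.

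The At2g29380-like gene had the largest estimated difference between droughted and watered leaves of the 3 phosphatases in both cultivars. The genes were not tested against each other. The level of the At2g29380-like gene was 192, 216 and 227 TPM in DG1, against 16.8, 9.46 and 5.51 TPM in CG1. In W1 it stood at 102, 188 and 82.3 TPM in DW1, against 11.6, 12.9 and 18.2 TPM in CW1. Every droughted library lay above every watered one. The lowest DG1 library held 11.4 times the highest CG1 level, and the lowest DW1 library 4.53 times the highest CW1 level. Group means were 211.5 ± 17.9 TPM in DG1 and 10.6 ± 5.72 TPM in CG1, and 124 ± 56.0 TPM in DW1 and 14.2 ± 3.47 TPM in CW1 (SD, n = 3 each). The fitted log2 fold change, from 1 edgeR model of all 12 libraries, was 4.39 ± 0.39 in G1 and 3.19 ± 0.37 in W1 (± SE). Placed among the 29168 genes that passed the filter on low counts and ordered from the largest rise down, the gene ranked 213 in G1 and 352 in W1.

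The PP2CA-like gene, named for a phosphatase that restrains ABA signalling in Arabidopsis seeds and guard cells, was the most abundant of the 3 in watered leaves. Its level was 213, 159 and 142 TPM in DG1, against 29.6, 68.1 and 48.6 TPM in CG1. In W1 it stood at 109, 171 and 78.9 TPM in DW1, against 20.6, 22.6 and 21.1 TPM in CW1. Droughted and watered libraries did not overlap in either cultivar, and the CW1 libraries were nearly level with each other. The means were 171 ± 37.4 TPM in DG1 and 48.7 ± 19.3 TPM in CG1, and 120 ± 46.7 TPM in DW1 and 21.4 ± 1.02 TPM in CW1. The fitted log2 fold change was 1.80 ± 0.39 in G1 and 2.61 ± 0.40 in W1, which placed the gene at 2425 and at 564 of the 29168 genes. Of the 3 phosphatases, it alone had the larger fitted difference in W1.

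The Os01g0583100-like gene was the least abundant. Its level was 40.3, 44.0 and 41.1 TPM in DG1, against 3.01, 5.86 and 4.38 TPM in CG1. In W1 it stood at 30.8, 31.6 and 13.5 TPM in DW1, against 5.16, 3.12 and 3.28 TPM in CW1. Droughted and watered libraries again did not overlap, and DW1 replicate 3 lay well below the other droughted libraries. The means were 41.8 ± 1.92 TPM in DG1 and 4.42 ± 1.42 TPM in CG1, and 25.3 ± 10.2 TPM in DW1 and 3.85 ± 1.13 TPM in CW1. The fitted log2 fold change was 3.24 ± 0.35 in G1 and 2.73 ± 0.35 in W1, ranks 728 and 504.

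Between droughted and watered leaves, the TPM of all 3 genes did not overlap in either cultivar. A rise without overlap was found for 16.4% of all genes tested in G1, for 11.3% in W1 and for 5.87% in both, and since the 3 genes were chosen for their rise, nothing is read from their count. These values rested on 190 to 7652 expected counts per library for the At2g29380-like gene, 495 to 5256 for the PP2CA-like gene and 73 to 1023 for the Os01g0583100-like gene. The assembly gave the genes lengths of 2147, 1674 and 1538 bp, in that order, and 5, 5 and 9 transcripts each, which the table merges.

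**Figure D1:**
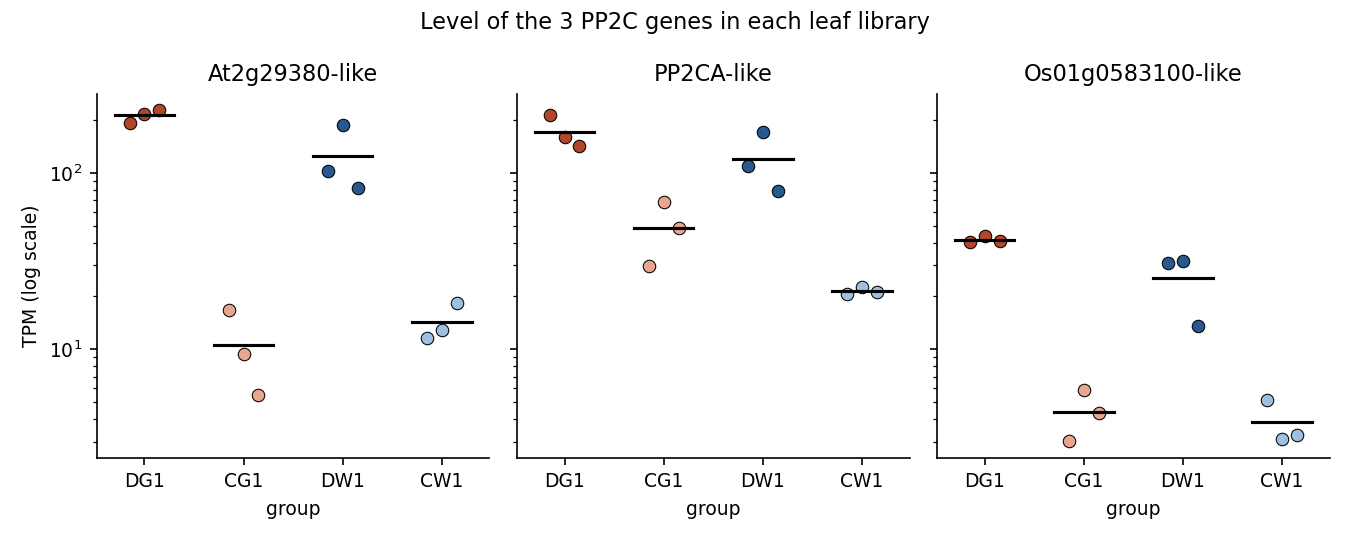
TPM (log scale) of the At2g29380-like, PP2CA-like and Os01g0583100-like genes in each library of DG1, CG1, DW1 and CW1; points are libraries and lines are group means (n = 3). In each panel every DG1 point lies above every CG1 point and every DW1 point above every CW1 point.

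The library that stood apart in its marker genes lay above all CG1 libraries for each of the 3 genes, but at an end of its own group. DG1 replicate 1 was the lowest of its group for the At2g29380-like gene (192 TPM) and for the Os01g0583100-like gene (40.3 TPM), and the highest for the PP2CA-like gene (213 TPM). Without it, the log2 fold changes between DG1 and CG1 were 4.46 ± 0.41, 1.63 ± 0.42 and 3.30 ± 0.38 for the At2g29380-like, PP2CA-like and Os01g0583100-like genes. CW1 replicate 1, with its conflicting label, held 11.6, 20.6 and 5.16 TPM of them, close to the other watered libraries. Leaving it out gave 3.06 ± 0.44, 2.56 ± 0.48 and 2.91 ± 0.41 between DW1 and CW1.

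The droughted W1 libraries were not alike. DW1 replicate 3 had the lowest level of all 3 phosphatases (82.3, 78.9 and 13.5 TPM), and DW1 replicate 2 the highest (188, 171 and 31.6 TPM). Within DW1 the coefficient of variation was 45.2% for the At2g29380-like gene, 39.1% for the PP2CA-like gene and 40.4% for the Os01g0583100-like gene, against 8.45%, 21.8% and 4.60% within DG1. Whether this spread differs between the cultivars was not tested. Without DW1 replicate 3 the log2 fold changes in W1 were 3.37 ± 0.38, 2.79 ± 0.42 and 2.99 ± 0.30, and without DW1 replicate 2 they were 2.76 ± 0.32, 2.27 ± 0.39 and 2.49 ± 0.36. Summed leaf markers came to 97773, 141716 and 142265 TPM in DW1 replicates 1, 2 and 3. The lowest sum was in replicate 1, the middle library for each phosphatase. The part of leaf content in this spread was not tested.

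The order of the phosphatases differed with the water state. In watered leaves PP2CA-like transcripts outnumbered At2g29380-like ones, per length, in 6 of 6 libraries, while in droughted leaves the levels were close or reversed. The ratio of At2g29380-like to PP2CA-like TPM was 0.899, 1.36 and 1.60 in DG1, against 0.568, 0.139 and 0.113 in CG1. In W1 it was 0.933, 1.10 and 1.04 in DW1, against 0.566, 0.572 and 0.860 in CW1. CG1 replicate 1 lay with the CW1 libraries in this ratio, away from CG1 replicates 2 and 3. Across all 12 libraries, Pearson r of log2(TPM + 1) was 0.848 between the At2g29380-like and PP2CA-like genes, 0.943 between the At2g29380-like and Os01g0583100-like genes and 0.935 between the PP2CA-like and Os01g0583100-like genes, and the drought difference is shared by all of these values. Over the 6 watered libraries alone r was -0.67, -0.60 and 0.58 for these pairs. Over the 6 droughted libraries it was 0.851, 0.868 and 0.829. These are descriptions over few libraries, and no p is attached to them.

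**Figure D2:**
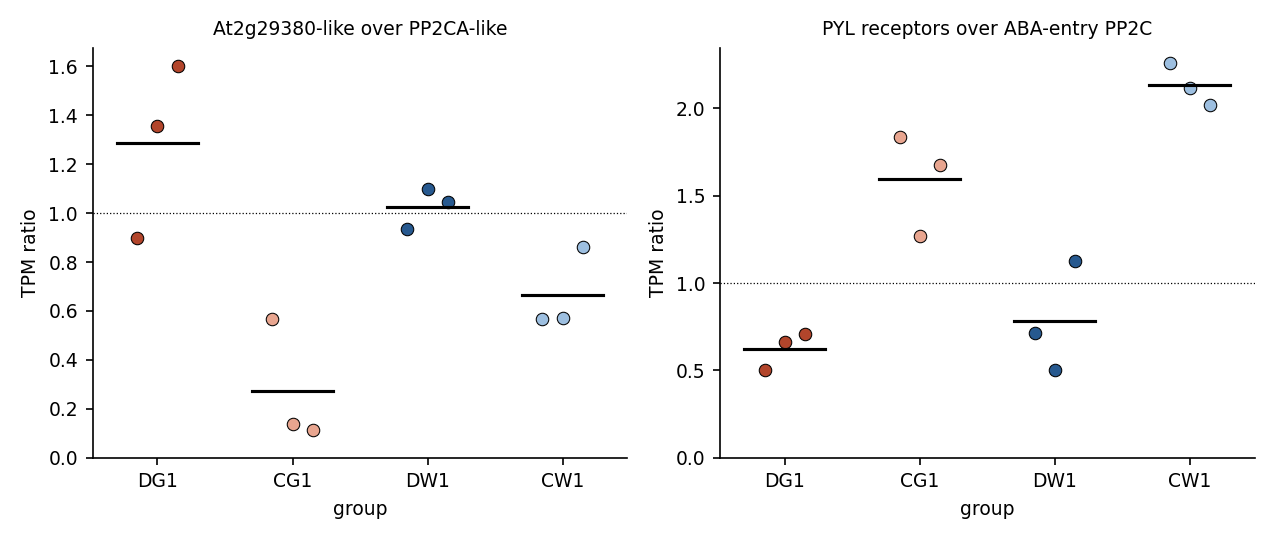
Left, ratio of At2g29380-like to PP2CA-like TPM; right, ratio of the summed TPM of 8 PYL receptor genes to that of the 8 PP2C genes of the ABA entry; points are libraries, lines are group means (n = 3) and the dotted line is a ratio of 1. On the left all 6 watered libraries lie under 1, as do DG1 replicate 1 and DW1 replicate 1. On the right all 6 watered libraries lie over 1, as does DW1 replicate 3, and the phosphatase sum includes the 3 genes chosen for their rise.

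In watered leaves, the question was whether the cultivars start out with different levels of these phosphatases. The PP2CA-like gene was higher in all 3 CG1 libraries (29.6 to 68.1 TPM) than in any CW1 library (20.6 to 22.6 TPM), with a log2 fold change of 1.42 ± 0.39 and a 95% interval of 0.56 to 2.28. It did not pass the test over all genes (edgeR quasi-likelihood test with Benjamini-Hochberg adjustment, adjusted p = 0.135). The call depended on the tool and on 1 library: the DESeq2 Wald test gave a log2 fold change of 1.45 with adjusted p = 0.0141, and edgeR without CG1 replicate 1 gave 1.75 ± 0.30 with adjusted p = 0.00972. Over all alternatives this p lay between 0.00972 and 0.472. The At2g29380-like gene went the other way, with a log2 fold change of -0.38 ± 0.34 (interval -1.13 to 0.38, edgeR adjusted p = 0.745) and overlapping libraries. The Os01g0583100-like gene also overlapped (0.33 ± 0.33, interval -0.40 to 1.07, edgeR adjusted p = 0.778). So 0 of 3 genes were called, against 0.442% of all genes tested, while 1 of 3 had an unadjusted p under 0.05, as had 12.8% of all genes, and 1 was called by DESeq2. Of the 3 genes 1 was higher in CG1 without overlap, which held for 6.16% of all genes tested. Without CW1 replicate 1 the PP2CA-like difference was 1.37 ± 0.45 (edgeR adjusted p = 0.286).

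In droughted leaves, the question was whether the cultivars differ in the level they reach. All 3 genes had the higher mean in DG1, and for 2 of them the DG1 libraries lay above all DW1 libraries, which held for 7.14% of all genes tested. The At2g29380-like gene stood at 192 to 227 TPM in DG1 and 82.3 to 188 TPM in DW1 (log2 fold change 0.83 ± 0.34, interval 0.07 to 1.58, edgeR adjusted p = 0.2755). The Os01g0583100-like gene stood at 40.3 to 44.0 TPM in DG1 and 13.5 to 31.6 TPM in DW1 (0.84 ± 0.32, interval 0.13 to 1.56, edgeR adjusted p = 0.249). The PP2CA-like libraries overlapped, with 142 to 213 TPM in DG1 and 78.9 to 171 TPM in DW1 (0.61 ± 0.38, interval -0.23 to 1.45, edgeR adjusted p = 0.4665). None passed the edgeR test over all genes, in which 0.00686% of genes were called. DESeq2 called 0 of the 3 as well, and 2 of the 3 had an unadjusted p under 0.05 in edgeR, as had 16% of all genes. This comparison uses the droughted libraries by which the genes had been chosen. Leaving out DW1 replicate 3 brought the differences to 0.64 ± 0.37, 0.42 ± 0.42 and 0.57 ± 0.30 for the At2g29380-like, PP2CA-like and Os01g0583100-like genes, and leaving out DG1 replicate 1 to 0.90 ± 0.38, 0.44 ± 0.42 and 0.91 ± 0.37.

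The drought effect itself was compared between the cultivars by the interaction, that is the log2 fold change in G1 minus that in W1. It was 1.2 ± 0.48 for the At2g29380-like gene (interval 0.14 to 2.27, edgeR adjusted p = 0.486), -0.81 ± 0.54 for the PP2CA-like gene (interval -2.00 to 0.37, adjusted p = 0.650) and 0.51 ± 0.46 for the Os01g0583100-like gene (interval -0.51 to 1.53, adjusted p = 0.754). The edgeR test thus called 0 of 3 genes, against 0.0137% of all genes, while 1 of 3 had an unadjusted p under 0.05, against 9.49% of all genes, and DESeq2 called 0. A larger or a smaller response in G1 was not detectable at this replication, and the intervals leave room for differences of more than 2-fold in at least 1 direction for each gene. The interaction is built from the same drought differences by which the genes had been chosen. How that choice bears on it was not tested.

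Averaged over both water states, G1 had 2.02-fold more PP2CA-like transcript than W1 (log2 fold change 1.01 ± 0.27, interval 0.42 to 1.61, edgeR adjusted p = 0.0879). This too was called by DESeq2 (adjusted p = 0.00894) and by edgeR without CG1 replicate 1 (1.17 ± 0.20, adjusted p = 0.0113), and the range over all alternatives was 0.00894 to 0.186. The Os01g0583100-like gene followed with 0.59 ± 0.23 (interval 0.07 to 1.10, edgeR adjusted p = 0.2) and the At2g29380-like gene with 0.23 ± 0.24 (interval -0.31 to 0.76, adjusted p = 0.655). The edgeR test called 0 of 3, where 1.3% of all genes were called, with 2 of 3 at an unadjusted p under 0.05, against 19.9% of all genes.

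**Figure D3:**
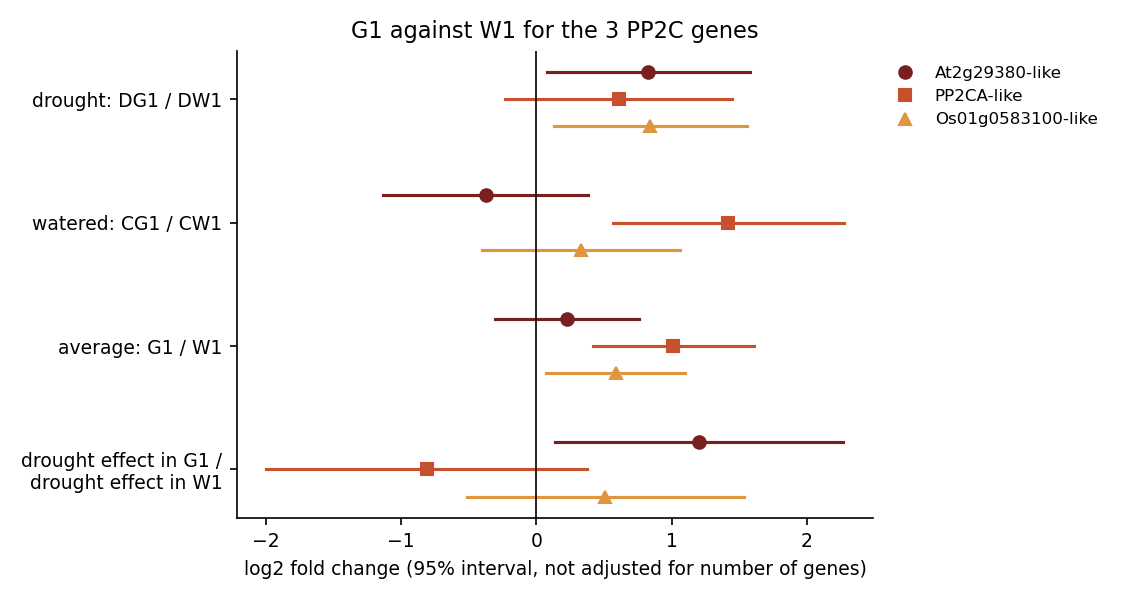
Log2 fold change of G1 over W1 for the 3 PP2C genes in droughted leaves, in watered leaves and averaged over both, and the interaction; symbols are edgeR estimates and lines are 95% intervals that are not adjusted for the number of genes tested. The PP2CA-like intervals lie above 0 in watered leaves (0.56 to 2.28) and on average (0.42 to 1.61). So do the At2g29380-like intervals in droughted leaves (0.07 to 1.58) and for the interaction (0.14 to 2.27). The Os01g0583100-like intervals do so in droughted leaves (0.13 to 1.56) and on average (0.07 to 1.10). No gene passed the adjusted edgeR test in any row.

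Set against the whole PP2C family, 2 of the 3 genes held the highest levels under drought. By group mean TPM the At2g29380-like gene ranked 1 of 67 PP2C genes in DG1 and 36 in CG1, and 1 in DW1 and 33 in CW1. The PP2CA-like gene ranked 2 in DG1 and 8 in CG1, and 2 in DW1 and 21 in CW1. The Os01g0583100-like gene ranked 12 in DG1 and 53 in CG1, and 22 in DW1 and 56 in CW1. Together the 3 genes made up 23.9%, 25.1% and 23.5% of all PP2C TPM in the DG1 libraries, against 3.80%, 4.94% and 3.73% in CG1. In W1 the share was 15.4%, 23.1% and 12.8% in DW1, against 3.04%, 3.10% and 3.37% in CW1. The median PP2C gene stayed at 14.1 TPM in DG1 and 14.4 TPM in CG1, and at 14.5 TPM in DW1 and 14.0 TPM in CW1. In watered G1 leaves the leading PP2C genes were instead an At4g33920-like gene (DN14975_c0_g1, mean 163 TPM) and an At2g30020-like gene (DN16647_c0_g9, 79.2 TPM). PPH1, the chloroplast phosphatase that acts on light-harvesting proteins, ranked 3 in DG1, CG1 and DW1 and 2 in CW1, at 62.5 to 96.6 TPM.

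Among the 8 genes of the ABA entry, the 3 phosphatases made up 79.6% ± 0.562 of the TPM in DG1 and 54.3% ± 12.7 in CG1, and 71.6% ± 5.60 in DW1 and 36.3% ± 0.908 in CW1 (SD, n = 3 each). These shares and the family ranks follow in part from the choice of the 3 genes for their rise and are given as a description. The sum of the 8 genes was 516 to 555 TPM in DG1 and 104 to 126.5 TPM in CG1, and 264 to 504 TPM in DW1 and 105 to 114 TPM in CW1. Watered leaves of the cultivars held close totals, and CG1 replicates 2 and 3 had more PP2CA-like and fewer HAB1-like transcripts than the CW1 libraries.

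**Figure D4:**
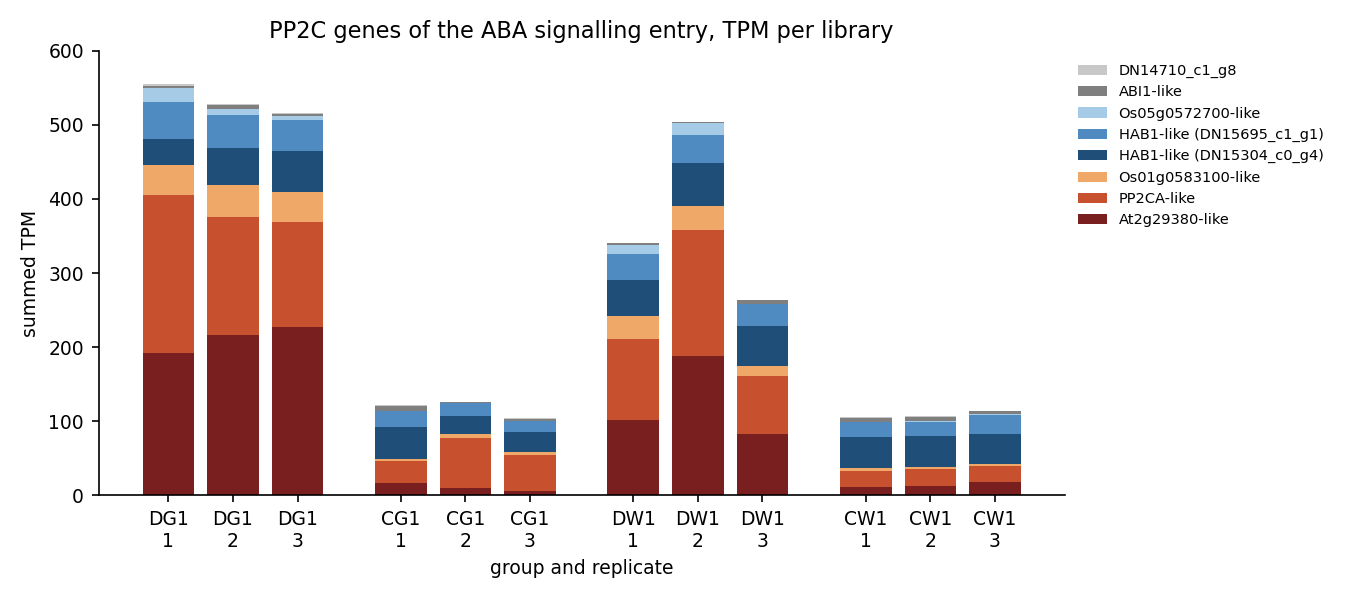
Summed TPM of the 8 PP2C genes with the KEGG entry of ABA signalling in each library, replicates 1 to 3 of DG1, CG1, DW1 and CW1; colours are genes, warm for the 3 phosphatases described here. Bars reach 516 to 555 TPM in DG1 and 264 to 504 TPM in DW1, against 104 to 126.5 TPM in CG1 and 105 to 114 TPM in CW1.

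Of the other 5 genes of the ABA entry, 3 passed the edgeR test between DG1 and CG1, all higher in DG1, where 11.5% of all genes tested were called higher. Of these, 2 have the Arabidopsis co-receptor HAB1 as their hit. The HAB1-like gene DN15695_c1_g1 stood at 50.6, 43.5 and 41.9 TPM in DG1, against 21.6, 18.0 and 14.5 TPM in CG1 (log2 fold change 1.38 ± 0.20, edgeR adjusted p = 0.00213). It passed with each of the 12 libraries left out in turn. The HAB1-like gene DN15304_c0_g4 stood at 34.6, 50.3 and 55.5 TPM in DG1, against 42.4, 23.04 and 27.5 TPM in CG1, and its libraries overlapped (0.66 ± 0.21, edgeR adjusted p = 0.0421). Its call was lost without any 1 of replicates 2 and 3 of DG1, CG1 or DW1 or of the 3 CW1 replicates (adjusted p up to 0.155). The gene with the rice phosphatase Os05g0572700 as its hit (DN19745_c0_g6) was near 0 in watered leaves. It stood at 18.4, 8.27 and 4.79 TPM in DG1, against 0.620, 0.0400 and 0 TPM in CG1 (5.44 ± 1.335, edgeR adjusted p = 0.0157), and it lost the call without CG1 replicate 2 or 3 (adjusted p up to 0.0582).

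In W1, 0 of these 5 genes passed the edgeR test, in which 0.771% of all genes rose, with 3 at an unadjusted p under 0.05 and 2 called by DESeq2. The Os05g0572700-like gene stood at 11.3, 16.3 and 0.450 TPM in DW1, against 0.310, 0.510 and 0.460 TPM in CW1 (4.10 ± 1.23, edgeR adjusted p = 0.0996). DW1 replicate 3, the lowest of its group for all 3 phosphatases described above, was here at the watered level. The HAB1-like genes had log2 fold changes of 0.78 ± 0.20 (DN15695_c1_g1, edgeR adjusted p = 0.0741) and 0.48 ± 0.21 (DN15304_c0_g4, adjusted p = 0.214). The ABI1-like gene DN20937_c1_g8, named for the first ABA phosphatase known from Arabidopsis, was at 1.69 to 6.16 TPM over all 12 libraries and was called in neither cultivar (0.21 ± 0.46 in G1 and -0.61 ± 0.47 in W1, edgeR adjusted p = 0.783 and 0.490). DN14710_c1_g8, of uncharacterized hit, was at 0.220 to 2.79 TPM and was not called either (1.70 ± 0.67 and -0.07 ± 0.69, edgeR adjusted p = 0.0881 and 0.969).

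Of the 64 other PP2C genes 61 were tested. In G1, 15 of them rose and 11 fell in edgeR, where 11.5% of all genes tested rose and 12.3% fell, and their median log2 fold change was 0.21 against 0.01 over all genes. Leaving out 1 library gave 6 falling genes without CG1 replicate 2 and 7 without replicate 3 of CG1 or replicate 2 or 3 of DG1. The number of rising genes was 10 without CG1 replicate 3. Those that rose with the highest mean level were WIN2 (DN17178_c1_g3, 0.82 ± 0.14), both At1g22280-like genes (DN18374_c0_g2, 0.88 ± 0.18, and DN14111_c2_g4, 0.52 ± 0.14) and the HAB1-like DN15304_c0_g4. Of the 11 that fell, the 4 with the highest mean level over all libraries were the At4g33920-like DN14975_c0_g1 (-1.77 ± 0.55), PPC6-7 (DN14871_c1_g1, -1.25 ± 0.29), an Os06g0717800-like gene (DN17694_c0_g1, -0.76 ± 0.22) and an At1g09160-like gene (DN17235_c0_g2, -2.01 ± 0.25), with edgeR adjusted p of 0.00123 to 0.0421 over these 8 genes. WIN2, DN18374_c0_g2, PPC6-7 and the At1g09160-like gene passed with every library left out in turn. DN14111_c2_g4 lost the call without DG1 replicate 1 or 2 or CG1 replicate 1 or 3 (up to 0.102), the Os06g0717800-like gene without any 1 DG1 replicate or CG1 replicate 2 or 3 (up to 0.111), and the At4g33920-like gene without any 1 of replicates 2 and 3 of DG1, CG1 or DW1 or of the 3 CW1 replicates (up to 0.134).

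In W1 the edgeR test called 1 of the 61 genes, where 0.771% of all genes tested rose, and the median was 0.18 against 0.02 over all genes. It was an Os02g0799000-like gene (DN17714_c0_g3) at 10.1 ± 1.97 TPM in DW1 and 5.59 ± 2.13 TPM in CW1 (1.26 ± 0.26, edgeR adjusted p = 0.0426). The call was lost without any 1 of replicates 2 and 3 of DG1, CG1 or DW1 or of replicates 1 and 2 of CW1 (adjusted p up to 0.217). DESeq2 called 13 genes, 8 of them higher in DW1.

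Between the cultivars, the edgeR test called 1 of the 61 genes in watered leaves, against 0.442% of all genes tested, the At2g30020-like DN16647_c0_g9, whose Arabidopsis namesake is a phosphatase of MAP kinases. It stood at 42.7, 116 and 79.0 TPM in CG1, against 6.75, 7.83 and 6.22 TPM in CW1 (log2 fold change 3.76 ± 0.47, edgeR adjusted p = 0.0211). Like the PP2CA-like gene it had its lowest CG1 value in CG1 replicate 1, and so had the At4g33920-like gene, at 36.2 TPM there against 247 and 206 TPM in CG1 replicates 2 and 3. CG1 replicate 1 also had fewer leaf marker transcripts (76079 TPM) than CG1 replicates 2 and 3 (147484 and 138571 TPM). DG1 replicate 1, with the lowest marker sum (17164 TPM), held the highest PP2CA-like level of its group (213 TPM). Whether marker sums bear on these levels was not tested. Without CG1 replicate 1 the PP2CA-like difference in watered leaves was 1.75 ± 0.30, against 1.42 ± 0.39 with it. The count of called genes was 9 without CG1 replicate 1 and 0 without CG1 replicate 3 or any 1 CW1 replicate. Averaged over water states 2 genes were called, against 1.3% of all genes, both At2g30020-like, DN16647_c0_g9 (2.22 ± 0.31, edgeR adjusted p = 0.0142) and DN18063_c1_g1 (3.02 ± 0.59, adjusted p = 0.0382). This count was 8 without CG1 replicate 1 and 1 without any 1 of the other libraries except DG1 replicate 2. In droughted leaves edgeR called 0 of 61, against 0.00686% of all genes, and 8 of 61 had an unadjusted p under 0.05, against 16% of all genes. DESeq2 called 0. The interaction was called by edgeR for 0 of the 61, against 0.0137% of all genes, and by DESeq2 for 1.

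**Figure D5:**
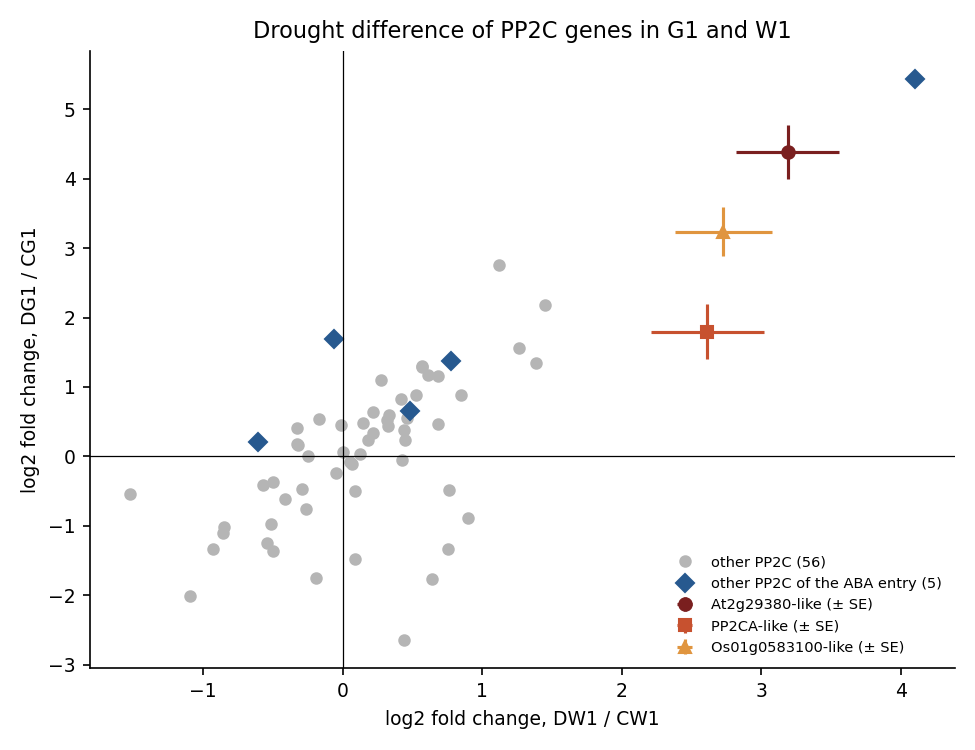
Log2 fold change of DG1 over CG1 (vertical) against DW1 over CW1 (horizontal) for the 3 phosphatases (± SE), the other 5 PP2C genes of the ABA entry and 56 further PP2C genes. The 3 phosphatases lie at 1.80 to 4.39 in G1 and 2.61 to 3.19 in W1, and the Os05g0572700-like gene lies at 5.44 and 4.10.

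The rest of the ABA pathway was read from 7 lists of 114 genes, of which 97 were tested. In edgeR 23 genes rose and 5 fell in G1, and 7 rose and 1 fell in W1. Rises were called for 11.5% of all genes in G1 and 0.771% in W1, and falls for 12.3% and 0.799%. The number of rising genes was 14 in G1 without CG1 replicate 3 and 0 in W1 without CW1 replicate 1 or 2. Among 8 PYR/PYL receptor genes, PYL9 (DN15855_c0_g2, 2.28 ± 0.35) and PYL11 (DN21356_c0_g6, 2.67 ± 0.54) rose in G1, and PYL8 (DN15855_c0_g3, -1.03 ± 0.21) and PYL4 (DN14705_c0_g7, -2.03 ± 0.31) fell. In W1, PYL11 rose (2.88 ± 0.54) and PYL4 fell (-2.09 ± 0.32). Another PYL9 gene, DN18670_c0_g3, was not called in G1 (0.27 ± 0.21, edgeR adjusted p = 0.378). The called PYL9 and PYL8 genes belong to 1 assembly component, and whether they share reads was not tested. The summed TPM of the 8 receptor genes was 0.501 to 0.711 times that of the 8 phosphatase genes of the ABA entry in DG1, against 1.27 to 1.84 times in CG1. It was 0.503 to 1.13 times in DW1, against 2.02 to 2.26 times in CW1. The receptor sum itself was 332 ± 47.2 TPM in DG1 and 186 ± 32.7 TPM in CG1, and 265 ± 29.0 TPM in DW1 and 231 ± 6.11 TPM in CW1. The phosphatase sum is mostly made up of the 3 genes chosen for their rise, so the fall of this ratio follows from that choice and is no result. Over the other 5 genes of the entry, an alternative chosen after seeing the data, the receptor sum was 2.54 to 3.44 times the phosphatase sum in DG1, against 3.10 to 3.82 times in CG1, and 2.22 to 3.33 times in DW1, against 3.22 to 3.50 times in CW1. Droughted and watered libraries overlapped in this ratio in both cultivars.

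Of 8 SnRK2 kinase genes tested, 3 rose in G1, SAPK10 (DN16475_c0_g2, 0.77 ± 0.16) and 2 of 3 SAPK1-like genes (DN17683_c1_g1, 0.71 ± 0.22, and DN17916_c0_g4, 0.73 ± 0.22). Both ABF genes with the highest levels rose in either cultivar, ABF2 (DN18961_c0_g2) by 1.89 ± 0.37 in G1 and 2.00 ± 0.37 in W1, and ABF4 (DN19537_c1_g1) by 1.07 ± 0.17 and 0.91 ± 0.17 on the log2 scale. Of 20 genes for ABA synthesis and breakdown tested, 5 rose and 1 fell in G1. They include ABA2 (DN13541_c0_g9, 1.00 ± 0.27), ABA3 (DN17696_c1_g9, 0.89 ± 0.29) and FLACCA (DN20679_c0_g1, 0.69 ± 0.16), of ABA synthesis, CYP707A2 (DN17264_c0_g3, 1.73 ± 0.52), which breaks ABA down, and another FLACCA-like gene that fell (DN16689_c1_g2, -2.06 ± 0.50). Genes not called in G1 include a more abundant ABA3 gene (DN16267_c1_g4, -0.15 ± 0.14), NCED3 (DN17465_c0_g5, 1.09 ± 0.56) and CYP707A1 (DN18330_c0_g2, -1.84 ± 0.82). Their edgeR adjusted p were 0.127 to 0.463. Among 14 genes for proteins known in Arabidopsis to destabilize or bind ABA phosphatases, BPM2 (DN15249_c0_g4, 0.65 ± 0.13) and PUB13 (DN15169_c0_g4, 0.91 ± 0.26) rose and UBC27 (DN18742_c0_g2, -0.50 ± 0.16) fell in G1. Other tested genes with these hits were not called. A second BPM2 gene (DN20062_c1_g5) and a second PUB13 gene (DN13828_c0_g2) were both at -0.02 ± 0.16, and further UBC27 genes ranged from -0.23 ± 0.61 to 0.97 ± 0.67. Of 10 genes tested in a list of potassium and anion channels and NADPH oxidases, some of which act in guard cells, SKOR (DN14919_c0_g1, 2.00 ± 0.46), an outward potassium channel known from the Arabidopsis root, and KAT3 (DN21000_c1_g2, 2.65 ± 0.72) rose in G1. Adjusted p in edgeR were 0.00248 to 0.0463 over the G1 calls named for these lists. In G1, 11.5% of all genes tested rose and 12.3% fell, and 2 rising of 14 PP2C regulators is near that share. In W1, edgeR called 0 genes of the kinase, synthesis and breakdown, PP2C regulator and channel lists. Of all genes, 0.771% rose and 0.799% fell there. The edgeR interaction was called for 0 genes of the 7 ABA lists, against 0.0137% of all genes. A call in 1 cultivar alone shows no difference between the cultivars.

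Of 33 ABA-responsive output genes tested, 7 rose and 1 fell in G1 and 4 rose in W1. Over all genes tested, 11.5% rose and 12.3% fell in G1, and 0.771% rose in W1. The median log2 fold change of the list was 0.58 in G1 and 0.72 in W1, against 0.01 and 0.02 over all genes. In G1 the gene with RD22, a dehydration-responsive protein, as its hit (DN15535_c0_g6) rose by 3.30 ± 0.59, XERICO (DN20014_c0_g1), a RING protein that raises ABA in Arabidopsis, by 3.90 ± 0.27, an ATHB-12-like homeodomain factor (DN17111_c0_g9) by 4.29 ± 0.44 and LEA18 (DN16504_c0_g2) by 6.77 ± 1.52 on the log2 scale, while HVA22A (DN13167_c0_g1, -1.65 ± 0.54) fell. ATHB-7 (DN20532_c1_g3) also rose in G1, by 7.33 ± 1.13 (edgeR adjusted p = 0.00248). In W1, XERICO (2.21 ± 0.25), the ATHB-12-like gene (3.00 ± 0.42), ATHB-7 (5.81 ± 1.135) and SAG21 (DN14809_c1_g6, 2.30 ± 0.47) rose. The edgeR adjusted p of these genes were 0.000266 to 0.047 in G1 and 0.0175 to 0.0426 in W1. The other RD22-like genes tested had lower estimates under drought and were not called in either cultivar. DN15535_c0_g3 was at -0.68 ± 0.40 in G1 and -1.67 ± 0.41 in W1, and DN14438_c0_g1 at -1.60 ± 1.065 and -1.625 ± 1.052.

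Several of these pathway calls depended on single libraries. In W1, ABF2, ABF4, PYL11 and SAG21 lost the call without any 1 of replicates 2 and 3 of DG1, CG1 or DW1 or of the 3 CW1 replicates, ATHB-7 without the same libraries other than DW1 replicate 3, XERICO and PYL4 without DW1 replicate 2 or CW1 replicate 1 or 2, and the ATHB-12-like gene without CW1 replicate 1 or 2 (edgeR adjusted p up to 0.209). In G1, HVA22A, ABA3 and UBC27 were lost in at least 10 of the 12 omissions, the exceptions being CG1 replicate 1 and DW1 replicate 1 for HVA22A and DW1 replicate 1 for ABA3 and UBC27. The 2 called SAPK1-like genes lost it in 8 omissions each, any 1 CW1 replicate, DG1 replicate 1 or 2, CG1 replicate 1 or 3 for both, with DG1 replicate 3 for DN17683_c1_g1 and CG1 replicate 2 for DN17916_c0_g4. PUB13 lost it without any 1 DG1 replicate, CG1 replicate 2 or 3 or CW1 replicate 2, ABA2 without DG1 replicate 2 or 3 or any 1 CG1 replicate, CYP707A2 without DG1 replicate 1 or 2, CG1 replicate 1 or 3 or CW1 replicate 2, KAT3 without DG1 replicate 1 or CG1 replicate 2 or 3, and FLACCA DN16689_c1_g2 without DG1 replicate 3 or CG1 replicate 2 (edgeR adjusted p up to 0.175 over these G1 calls).

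Genes whose pattern was most like each phosphatase were ranked by Pearson r of log2(TPM + 1) over the 12 libraries, among 20807 annotated genes. All r values share the difference between droughted and watered leaves, so they are descriptions only. The At2g29380-like gene was closest to the ATHB-12-like homeodomain factor DN17111_c0_g9 (r = 0.995), whose mean was 194 TPM in DG1 and 10.1 TPM in CG1, and 118 TPM in DW1 and 15.6 TPM in CW1, nearly the levels of the phosphatase. It was followed by EZA1 (DN14203_c0_g1, 0.983), a histone methyltransferase of the Polycomb group, a CASP-like protein (DN13032_c0_g1, 0.982), NFD4 (DN15949_c3_g6, 0.977) and the plasma membrane proton pump LHA1 (DN20784_c0_g7, 0.977). Without DG1 replicate 1 the ATHB-12-like gene was still first (r = 0.994), and by Spearman rho it ranked 3 (0.972). The others held less well by Spearman rho: EZA1 ranked 1, but the CASP-like gene 35, LHA1 167 and NFD4 250, so that 2 of the 5 genes remained among the first 5.

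The PP2CA-like gene was closest to ABF2 (DN18961_c0_g2, r = 0.963), one of the transcription factors that act below the phosphatases. Next came GA2OX8 (DN14479_c0_g1, 0.962), which inactivates gibberellins, AFP2 (DN20750_c1_g6, 0.960), known in Arabidopsis as a binding partner of the ABA factor ABI5, the aspartyl protease APF1 (DN19562_c1_g1, 0.959) and DN15338_c0_g2, of uncharacterized hit (0.959). The lead of ABF2 was slight, and without DG1 replicate 1 it ranked 6 (r = 0.956) and by Spearman rho 17, with 3 of the 5 genes kept by either measure. The Os01g0583100-like gene was closest to the same GA2OX8 (0.985) and AFP2 (0.976) genes, then to metallothionein 2 (DN20092_c0_g4, 0.975), HHP1 (DN19113_c0_g1, 0.973) and a putative alpha/beta-hydrolase (DN15011_c1_g3, 0.968). By Spearman rho 1 of these 5 genes, GA2OX8, was kept, and 4 of 5 without DG1 replicate 1. Genes with r of 0.9 or more numbered 383 for the At2g29380-like gene, 73 for the PP2CA-like gene and 167 for the Os01g0583100-like gene.

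Genes of 1 Trinity component can share reads, so those assembled beside each phosphatase were checked. The At2g29380-like gene had 5 such neighbours, the PP2CA-like gene 6 and the Os01g0583100-like gene 5, and 0 of them were annotated as a PP2C. The annotated neighbours of the At2g29380-like gene were a ksg1-like kinase (DN14062_c0_g1), TGD4 (DN14062_c0_g5), TPS7 (DN14062_c0_g3), a transducin beta-like protein (DN14062_c0_g2) and DN14062_c0_g6, none above 33.1 TPM in any library. Those of the PP2CA-like gene were DIR23 (DN16290_c0_g8), PUB62 (DN16290_c0_g5), EPFL1 (DN16290_c0_g6), an armadillo-like protein (DN16290_c0_g2) and DN16290_c0_g1, which at 68.3 TPM in DG1 and 102 TPM in CG1, and 74.2 TPM in DW1 and 97.7 TPM in CW1, had the lower means under drought. That of the Os01g0583100-like gene was DN16436_c0_g4, at 12.5 TPM in DG1 and 24.2 TPM in CG1, and 17.1 TPM in DW1 and 28.6 TPM in CW1. Other neighbours had the higher means under drought. The ksg1-like kinase was at 18.1 TPM in DG1 and 5.93 TPM in CG1, and 16.1 TPM in DW1 and 10.0 TPM in CW1. DIR23 was at 9.47 TPM in DG1 and 2.49 TPM in CG1, and 10.2 TPM in DW1 and 1.48 TPM in CW1. The unannotated DN16436_c0_g5 reached 37.5 TPM. Whether neighbours shared reads with the phosphatases was not tested. Reads shared with PP2C genes of other components were not examined.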

How the data were processed

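The authors assembled the leaf reads with Trinity and estimated expression with RSEM, and the deposited table holds, per gene and library, expected counts and TPM, with annotation. The aligner is not given in the sources used here. Expected counts were rounded, filtered by filterByExpr, normalised by TMM and fitted in edgeR 4.0.16 (R 4.3.3) by the quasi-likelihood test, with 1 mean per group, 8 residual degrees of freedom and Benjamini-Hochberg adjustment over 29168 genes, and an adjusted p under 0.05 was a call. The script was tested on simulated data. Alternatives used DESeq2 1.42.0, limma 3.58.1, other filters and scaling, and omission of libraries. The members and gene lists were chosen with earlier results of these data known. Named genes were the members, every tested PP2C of the ABA entry, up to 4 per list and direction past the drought test with the highest mean TPM, the 5 genes most like each member and annotated assembly neighbours. The list of ABA PP2Cs was taken by KEGG entry, in place of a planned symbol pattern that took 2 genes by the numbers of unrelated rice genes, and genes of other function were taken out of the lists by annotation.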

Additional observations from a re-analysis of the deposited data

How the results depend on the processing

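Each of the 18 member comparisons kept its direction in all 18 or 19 alternatives. Log2 fold changes of the 3 genes under omission of 1 library ranged from 4.12 to 4.58, 1.45 to 2.26 and 2.99 to 3.54 in G1, and from 2.76 to 3.43, 2.27 to 2.79 and 2.49 to 2.99 in W1, for the At2g29380-like, PP2CA-like and Os01g0583100-like genes. The PP2CA-like difference was called in watered leaves by DESeq2 (1.45), and ranged over the omissions from 0.95 to 1.75, and averaged over water states it was called by DESeq2 (1.03) and ranged from 0.78 to 1.18. The share of the 3 genes in the TPM of the ABA entry was 77.9% in DG1 and 34.3% in CW1 on counts per kb with TMM library sizes.

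Counts of other PP2C genes varied more, and the cause was not tested. Over the omissions, 6 to 13 fell in G1, 0 to 2 rose and 0 to 2 fell in W1, 0 to 9 were higher and 0 to 1 lower in watered G1, 1 to 8 were higher in G1 averaged over water states, and 0 to 4 had a negative interaction. With 2 groups in the model the numbers were 7 falling in G1, 0 rising in W1 and 0 higher in watered G1. Without a filter they were 0 rising in W1 and 2 higher in watered G1, with RLE factors 1 fell in W1, and with limma-trend 0 rose and 1 fell in W1 and 1 was higher on average. DESeq2 gave 8 rising and 5 falling in W1, 6 higher in watered G1, 5 higher and 1 lower on average and 1 negative interaction. Over the 7 ABA lists, the omissions gave 14 to 23 rising and 2 to 11 falling in G1, and 0 to 9 rising and 0 to 3 falling in W1. DESeq2 gave 8 falling in G1 and 18 rising and 6 falling in W1, no filter 15 rising and 3 falling in G1, 2 groups alone 2 falling in G1 and 0 rising or falling in W1, and limma-trend 2 falling in W1.

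Replicate numbers did not pair the libraries: the deviations of same-numbered libraries correlated at -0.177 to 0.27, over 0.1 in 3 of 18 pairs, against 6 of 36 pairs of different numbers. With the replicate block the PP2CA-like difference in watered leaves was 1.33 (edgeR adjusted p = 0.189), and 1 other PP2C gene, not 2, was higher in G1 on average. Summing the PP2C genes of 1 assembly component gave no value, since no component of the 3 genes holds another PP2C. Of 43 drought calls named by the rule given above, 18 held in every alternative and 24 were lost in at least 1 omission. The G1 call of ATHB-7 and the At2g30020-like cultivar calls are outside this count. Numbers of ABA list genes falling in G1 were highest (11) without CG1 replicate 1 and lowest (2) without DG1 replicate 3 or CG1 replicate 2, and 1 gene rose in W1 without DW1 replicate 2.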
